A study of Mus musculus with 14 samples.

Results

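WNT ligands, their receptors and their inhibitors were followed as 49 listed genes, out of 21883 protein-coding genes, in chromatin accessibility data of mouse small cell lung cancer lines. The genes were taken from a list of names and not by a rule on measured values. They comprised 19 WNT ligands, 12 receptors (Frizzled genes with the co-receptors Lrp5 and Lrp6), 9 secreted inhibitors, 4 intracellular feedback genes, and 5 genes of the R-spondin receptors and the ubiquitin ligases they act on. All 49 were found in the RefSeq gene table of GRCm38.p6.

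WNT ligands are secreted lipid-modified proteins that bind a Frizzled receptor together with LRP5 or LRP6. In the canonical branch this stops a cytoplasmic destruction complex from degrading beta-catenin, which then joins TCF/LEF factors at target genes, while other branches act through Dishevelled or the ROR receptors without beta-catenin. The pathway limits itself at several levels, through secreted decoys (SFRP, WIF1), LRP blockers (DKK), inducible intracellular antagonists (NKD, AXIN2) and the ligases ZNRF3 and RNF43, which remove Frizzled from the membrane unless R-spondins engage LGR receptors.

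Accessible DNA was profiled by ATAC-seq, which maps sites where a transposase can insert adapters, in 7 lines grown in culture from tumors of mice, with 2 libraries per line. The Nfibf/f lines (genotype RPR2;Nfibf/f) comprised 1398M1 and 1399M4 (liver metastases) with 1398P2 and 1399P1 (lung tumors). The RPR2 lines comprised 12N1G and N2N1G (lymph node metastases) with 1373M1 (liver metastasis). All 7 lines thus carry the RPR2 background, known in this field as the combined loss of Rb1, Trp53 and Rbl2, and the Nfibf/f lines add a conditional allele of Nfib, a transcription factor gene that the series links to metastasis. Values of the Nfibf/f lines are listed below in the order 1398M1, 1399M4, 1398P2, 1399P1, and those of the RPR2 lines in the order 12N1G, N2N1G, 1373M1.

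The labels give neither the Cre nor the animals' ages, nor whether both libraries of a line are separate cultures. Each line therefore counted as 1 replicate, and p-values measure the spread between lines. Lines sharing the first part of their name (1398M1 and 1398P2, 1399M4 and 1399P1) were counted as separate, and their independence is not known here. Liver metastases were the only tissue with lines of both genotypes, so elsewhere genotype and tissue cannot be told apart. Peaks numbered 33558 in replicate 2 of 1398P2 and 65009 to 84220 in the other 13 libraries, and the lowest local background of a library, solved from its peak statistics, was 0.507 fragments per base in that library and 0.632 to 1.13 elsewhere. At Nfib itself the gene start had a peak in all 8 Nfibf/f and all 6 RPR2 libraries. Nfib held 9.5, 10.5, 6 and 15 regions in the Nfibf/f lines and 19, 17.5 and 15 in the RPR2 lines, which touch at 15, and peak lists do not show whether the allele was deleted. The neuroendocrine marker genes Chga and Syp each had a peak at their start in all 14 libraries. Of 6 hepatocyte genes, none had one in all 14, and 4, Alb and Afp among them, had none in any. Of 6 lymphocyte and myeloid genes, 5, Ptprc included, had none in any library and 1 had a peak in all 14. Peaks in all 14 libraries were also found at the starts of 2 of 7 fibroblast and endothelial genes and 3 of 5 lung epithelial genes, Nkx2-1 among these.

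The 7 fibroblast and endothelial genes together held 13.5, 15.5, 12.5 and 19 regions in the Nfibf/f lines, against 22, 23 and 23 in the RPR2 lines. Without Cdh5 these sums touch between the genotypes before scaling, through 1399P1 and 12N1G, and after scaling by the line's total they do not. Whether the gap is one of the list as a whole was not tested. Cdh5, the cadherin of endothelial junctions, had 1, 2, 1 and 2 regions in the Nfibf/f lines, against 5, 4.5 and 5.5 in the RPR2 lines, and a peak at a gene end in 0 of 8 Nfibf/f and 5 of 6 RPR2 libraries (log2 difference -1.51 ± 0.23, SE, limma adjusted p = 0.0245). Of the 3 tested, Cdh5 was called, and Pecam1 (-0.55, limma adjusted p = 0.123, unadjusted 0.012) and Col1a1 (0.01, limma adjusted p = 1) were not. The starts of Pecam1 and Pdgfra had no peak in any library. Pdgfra, not tested, had 1 or 2 regions in each Nfibf/f library and 3 in each RPR2 library. Apart from Cdh5 and Pdgfra, the line values of each listed gene overlapped or touched between genotypes before scaling. The part of these markers in the genotype results below, Nkd1 and Lrp6 included, was not tested.

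A region is the union of peaks of all libraries that overlap by at least 1 bp. It was called open in a line where both libraries had a peak and closed where neither had, and regions open in at least 1 line were counted at each gene, over its body and 10 kb on either side. The number of regions of a line is the mean over its libraries of those with a peak. Line values in the text, and their overlap between groups, are before scaling by the line's total over genes unless stated otherwise. Log2 differences are after it. In these bulk libraries a region open in fewer cells and a region less open in each cell cannot be told apart, and a missing peak says only that none was found at the depth sequenced.

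Of the 49 genes, 22 had enough regions to be tested between genotypes. Past the threshold were 2 of these 22, 1 in each direction, beside 1.42% of all genes tested. Nkd1, an intracellular antagonist that binds Dishevelled, had 3.5 ± 0.408 regions in Nfibf/f lines and 7 ± 0.866 in RPR2 lines (SD, n = 4 and 3). Lrp6, a co-receptor that WNT engages beside Frizzled, had 10.2 ± 1.26 regions in Nfibf/f lines and 6 ± 0.5 in RPR2 lines. None of the 10 ligands, 2 secreted inhibitors and 5 R-spondin axis genes tested passed. The rest of the 19 ligands and 9 secreted inhibitors had too few regions to be tested. limma called 0 of the 49 without replicate 1 of 1398P2, with no scaling, with the gene body alone and with each library's own peaks. It also called 0 without line 12N1G, N2N1G, 1398P2, 1399M4 or 1399P1, each left out in turn. The same held with a peak required in both libraries, the lymph node lines as 1 line, or no replicate 1. Separate from these counts, the neighbouring ligand genes Wnt3a and Wnt9a lay in a stretch of raised background in the lymph node lines alone.

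The test was limma on log2 of the scaled number of regions plus 0.5, with p-values adjusted over all 7067 genes that had a mean of at least 3 regions, and the log2 scale understates differences of genes with few regions. Of the 49 genes, 22 reached that mean: 10 of 19 ligands, 2 of 12 receptors, 2 of 9 secreted inhibitors, 3 of 4 feedback genes and 5 of 5 R-spondin axis genes. limma called 1 of the 22 higher and 1 lower in Nfibf/f lines at an adjusted p of 0.05, together 9.09%, beside 1.42% of all genes tested. Over all genes it called 69 higher and 31 lower, a split that became 24 and 31 with equal numbers of peaks per library. An unadjusted limma p under 0.05 was reached by 4 of the 22, which is 18.2%, beside 21.8% of all genes tested. The share of the listed genes was thus above that of all genes by calls, which rest on 2 genes, and below it by unadjusted p. Their median log2 difference, Nfibf/f minus RPR2, was -0.17, beside 0.00 for all genes tested, and 9 of the 22 were positive. The plot of log2 differences shows Nkd1 and Lrp6 at its ends.

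**Figure D1:**
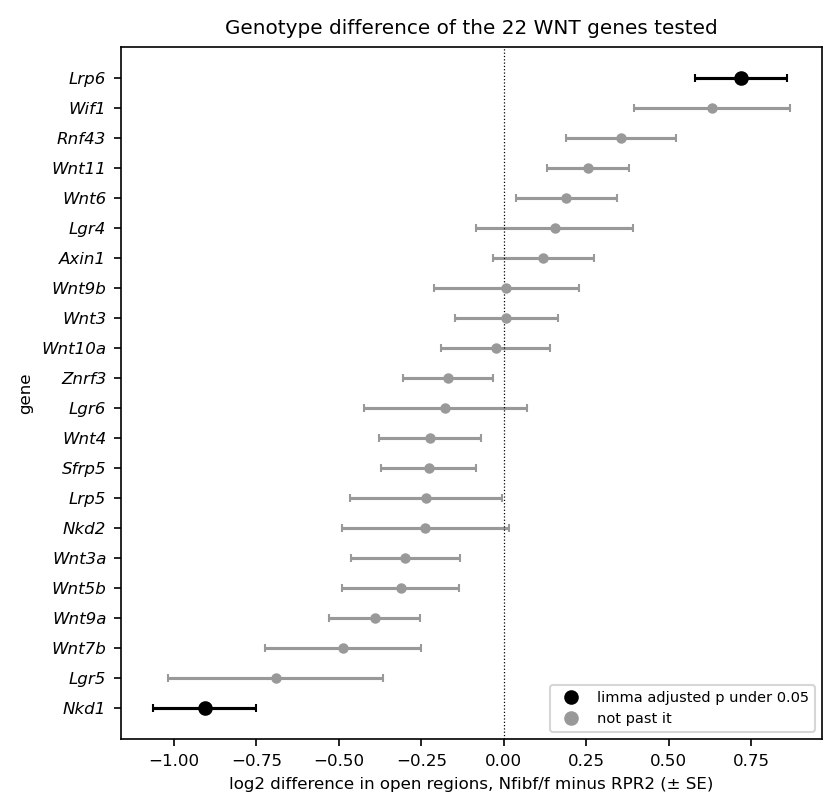
log2 difference in the scaled number of open regions, Nfibf/f minus RPR2, with its SE (x axis) for the 22 WNT genes tested (y axis, ordered by difference). Black points passed a limma adjusted p of 0.05: Lrp6 at 0.72 and Nkd1 at -0.91.

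Without regard to the test, 4 of the 48 genes with any open region had unscaled line values that did not overlap between the genotypes. They were Wnt7a, Fzd4, Lrp6 and Nkd1. The share over all genes with a region, also unscaled, was 8.6%. The 49 genes held 297 open regions together. Of these, 48 were open in all 7 lines (16.2%, beside 19.1% of regions near all genes) and 71 in 1 line (23.9%, beside 28.9%). The line 1398P2, which holds the shallowest library, had 76 of the 297 regions open, and the other 6 lines had 154 to 175.

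**Figure D2:**
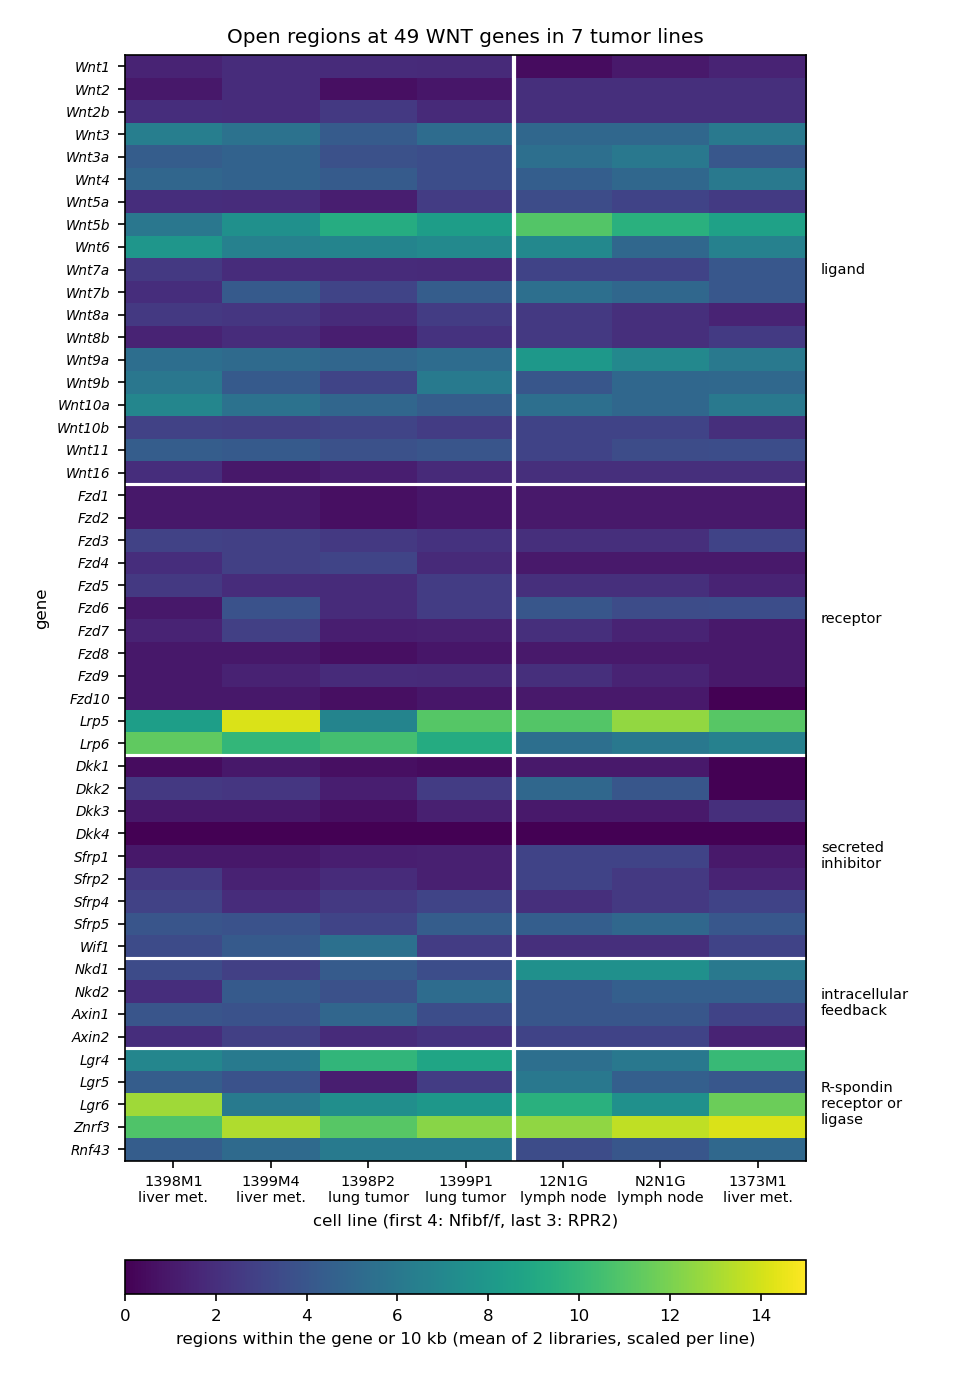
Number of open regions at each of the 49 WNT genes (y axis, grouped by role) in each line (x axis, Nfibf/f lines left of the white bar and RPR2 lines right of it), as the mean of its libraries after scaling for the line's total. Znrf3, Lrp5, Lgr6 and Wnt5b carry the most regions, Dkk4 carries none, and the contrast across the bar is visible at Nkd1 and Lrp6.

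Regions within 1 kb of a listed start of a gene, or of its upstream end, were present in every library for 19 of the 49 genes (38.8%), beside 52.5% of all protein-coding genes. Only 1 of the 49, Wnt8b, had a start peak in no library, beside 26.4% of all genes, and 29 had a peak in some libraries. By role, the start was marked in all 14 libraries for 6 of 19 ligands, 7 of 12 receptors, 1 of 9 secreted inhibitors, 3 of 4 feedback genes and 2 of 5 R-spondin axis genes. None of the 49 had a start peak in all Nfibf/f libraries and no RPR2 library, beside 0.0914% of all genes, and none in all RPR2 libraries and no Nfibf/f library, beside 0.0823%. For 17 genes without an entry in the promoter table, Lrp5, Lrp6 and Znrf3 among them, either end of the gene stood in for its start.

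Among the ligands, Wnt5b, which signals mainly outside the beta-catenin branch, carried the most open regions and has several listed starts. It had 6, 8, 7.5 and 9.5 regions in the Nfibf/f lines, against 11, 9.5 and 8.5 in the RPR2 lines. The ranges overlap, with 1398M1 lowest and 12N1G highest (log2 difference -0.31, limma adjusted p = 0.338), and after cutting all libraries to the same number of peaks it was 0.20 (limma adjusted p = 0.582). The upstream promoters of its 3 starts are shown because they differ in CpG content and in peaks within the same gene, each as the 250 bases before the start on the minus strand of GRCm38.p6, from RefSeq, with CpG in capitals.
Wnt5b, chr6:119544348-119544597: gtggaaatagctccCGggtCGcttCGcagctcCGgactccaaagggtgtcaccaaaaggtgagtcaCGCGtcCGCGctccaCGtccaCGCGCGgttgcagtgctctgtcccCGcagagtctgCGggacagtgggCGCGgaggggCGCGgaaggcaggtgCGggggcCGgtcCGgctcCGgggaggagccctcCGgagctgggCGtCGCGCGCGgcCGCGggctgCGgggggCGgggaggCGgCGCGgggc
Wnt5b, chr6:119467212-119467461: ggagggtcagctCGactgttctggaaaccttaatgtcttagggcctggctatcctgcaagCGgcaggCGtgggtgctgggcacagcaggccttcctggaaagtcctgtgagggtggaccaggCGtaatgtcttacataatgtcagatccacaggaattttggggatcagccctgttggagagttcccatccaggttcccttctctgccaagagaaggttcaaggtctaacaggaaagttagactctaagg
Wnt5b, chr6:119449387-119449636: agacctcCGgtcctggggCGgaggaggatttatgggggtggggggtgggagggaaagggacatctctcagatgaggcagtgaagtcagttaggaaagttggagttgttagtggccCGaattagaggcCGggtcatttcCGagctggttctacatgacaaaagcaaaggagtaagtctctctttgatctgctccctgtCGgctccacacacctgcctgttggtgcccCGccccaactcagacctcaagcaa

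The first of these holds 35 CpG, an observed-over-expected CpG ratio of 1.02, and had a peak in all 14 libraries. The second holds 4 CpG, a ratio of 0.231, and had a peak in none. The third holds 7 CpG, a ratio of 0.372, and had a peak in 7 of 8 Nfibf/f and 4 of 6 RPR2 libraries. The third also holds CTTTGAT, a TCF/LEF core motif, 71 bases before the start.

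Inside Wnt5b, a region at chr6:119513908-119514884 was open in all 3 RPR2 lines and closed in all 4 Nfibf/f lines, with a peak in 0 of 8 Nfibf/f and 6 of 6 RPR2 libraries. A region in the other direction, chr6:119535565-119536674, had a peak in 7 of 8 Nfibf/f and 0 of 6 RPR2 libraries. The gene therefore carries regions of both genotypes while its total does not separate them, as the map of its peaks shows.

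**Figure D3:**
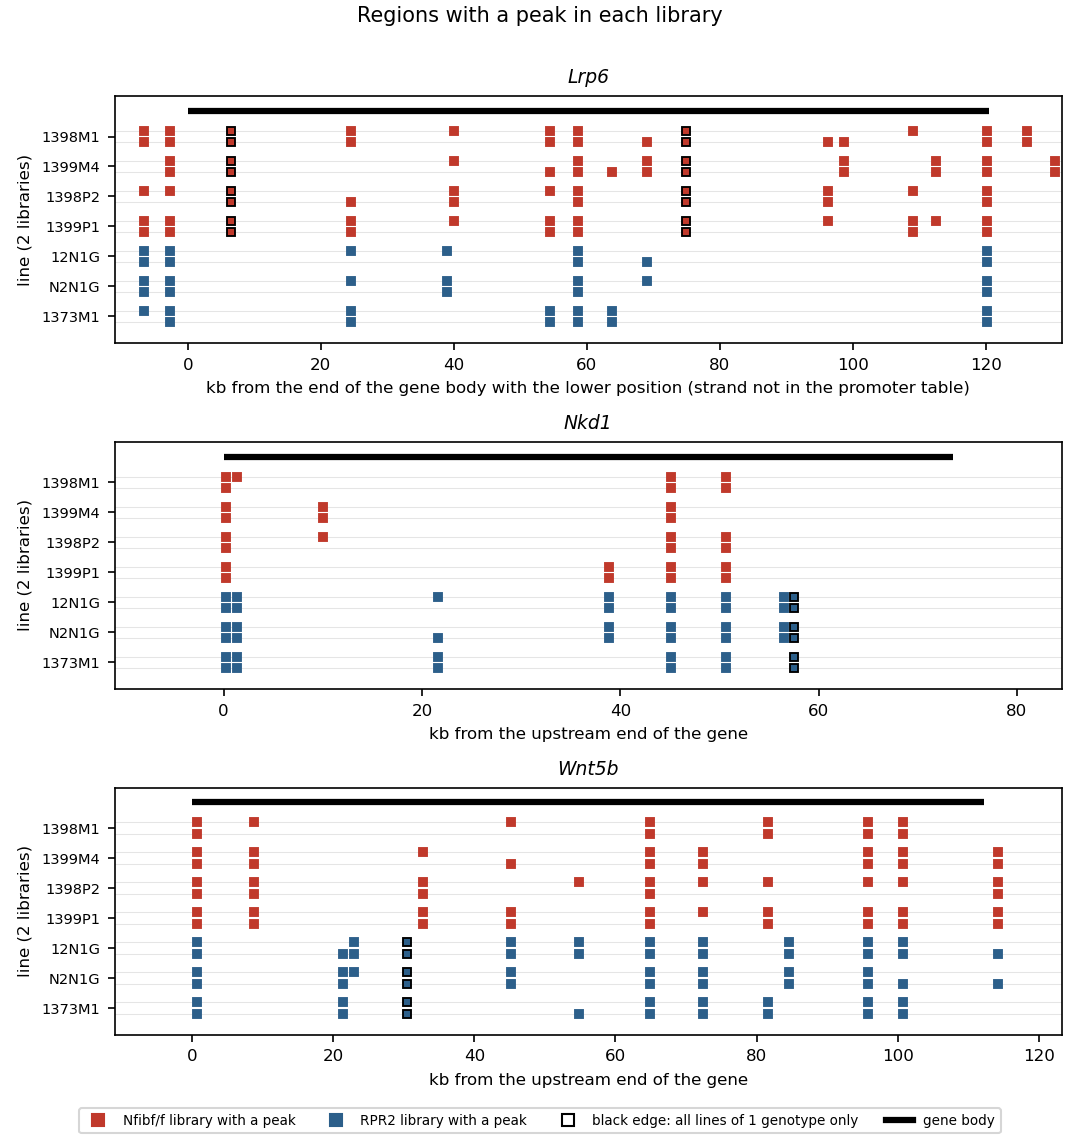
Peaks per library (squares, 2 rows per line, Nfibf/f lines above RPR2 lines) along Lrp6, Nkd1 and Wnt5b; the x axis is distance in kb, for Nkd1 and Wnt5b from the upstream end of the gene and for Lrp6 from the end with the lower position. Squares with a black edge mark regions open in every line of 1 genotype and closed in every line of the other: 2 at Lrp6 in Nfibf/f, 1 at Nkd1 and 1 at Wnt5b in RPR2.

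Wnt3a, a canonical ligand, had 4.5, 5, 3 and 4 regions in the Nfibf/f lines, against 5.5, 6 and 4 in the RPR2 lines. The lymph node lines were highest and the rest overlapped (log2 difference -0.30, limma adjusted p = 0.325). Its start region at chr11:59289805-59290818 had a peak in 0 of 8 Nfibf/f libraries and 3 of 6 RPR2 libraries, and was open in N2N1G alone. The promoter is shown as a CpG-rich start with few peaks, 250 bases before the start on the minus strand of GRCm38.p6, from RefSeq, with CpG in capitals.
Wnt3a, chr11:59290752-59291001: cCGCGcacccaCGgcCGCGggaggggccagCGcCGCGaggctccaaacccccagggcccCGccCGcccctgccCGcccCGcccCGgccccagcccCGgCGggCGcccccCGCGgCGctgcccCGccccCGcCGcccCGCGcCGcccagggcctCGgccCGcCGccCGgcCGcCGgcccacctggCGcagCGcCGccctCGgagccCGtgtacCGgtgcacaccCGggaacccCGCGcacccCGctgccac

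It holds 41 CpG, a ratio of 0.927, and had a peak over those bases in 0 of 8 Nfibf/f and 2 of 6 RPR2 libraries. Peaks beside it did not share this pattern, since regions inside the gene at chr11:59263608-59264755 and chr11:59282823-59283738 were open in all 7 lines.

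Wnt9a, a ligand whose start lies beyond that of Wnt3a on the opposite strand, had 5.5, 5.5, 4 and 6 regions in the Nfibf/f lines, against 8, 7 and 6 in the RPR2 lines. The groups touch at 6 before scaling. After it they did not, with 5.43 in 1398M1 and 6.07 in 1373M1 the nearest values. The log2 difference was -0.39 ± 0.14 (SE, limma adjusted p = 0.149). The additional regions were those of the lymph node lines. A region at chr11:59313159-59314456 had a peak in 0 of 8 Nfibf/f and 4 of 6 RPR2 libraries, and a region past the gene at chr11:59336040-59336726 in 0 and 5, and both were open in 12N1G and N2N1G alone. Wnt3a and Wnt9a share 1 region between them.

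Local background was solved for each peak summit and divided by the lowest value of its library (the floor). Like the line counts, it was highest in the lymph node lines at Wnt3a and Wnt9a. At Wnt3a its median over summits in the 4 lymph node libraries was 7.93 to 11.3 times the floor, against 1.27 to 2.42 times in the other 10, which are the 8 Nfibf/f and the 2 RPR2 liver libraries. At Wnt9a the lymph node libraries had 11.8 to 15.3 times the floor, against 2.28 to 7.96 times in the other 10. The lowest summit at Wnt3a lay at 4.34 to 7.38 times in the lymph node libraries, against 1.06 to 1.85 in the other 10, and at Wnt9a at 6.88 to 10.9 times, against 1.00 to 2.1. No library of another tissue reached the lymph node values by either measure. In the 1 Mb bin of chromosome 11 from 59 Mb that holds both genes, even the lowest background was 2.17 to 2.36 times the floor in libraries of the lymph node lines, against 1.00 to 1.06 times elsewhere. Its part in the region counts of Wnt3a and Wnt9a was not tested.

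**Figure D4:**
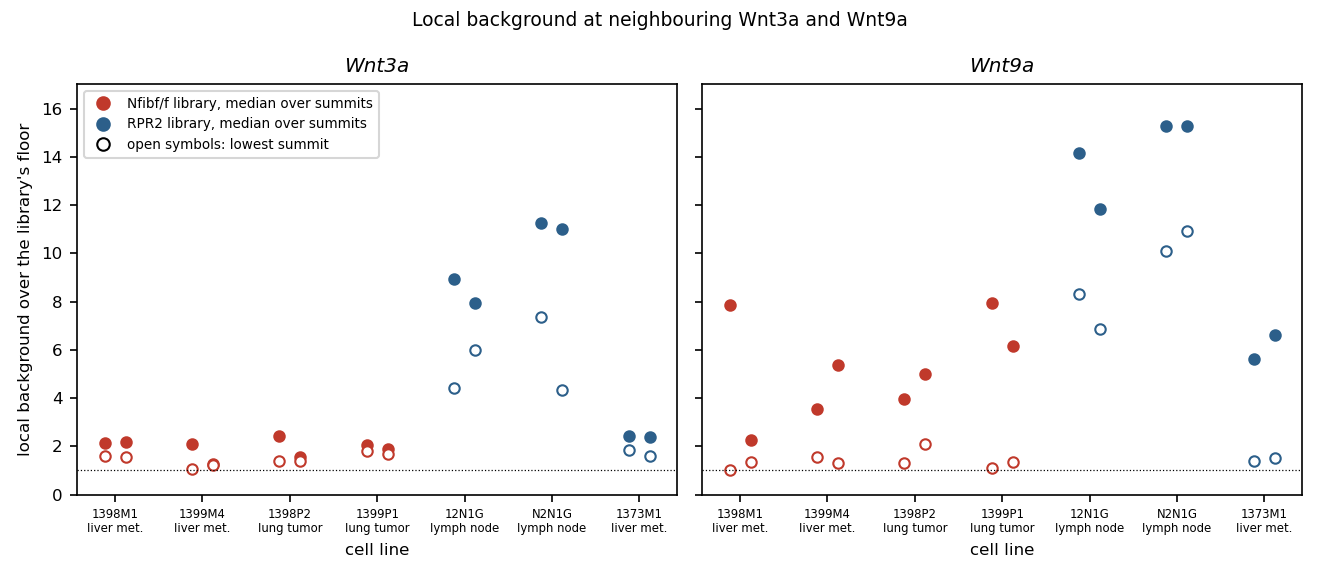
Local background over the floor of the library (y axis, 1 is the dotted line) at Wnt3a and Wnt9a in each of 14 libraries (x axis, 2 points per line, Nfibf/f lines first), as the median over summits (filled) and the lowest summit (open). The lymph node libraries lie at 7.93 or above at Wnt3a and 11.8 or above at Wnt9a by the median, above all other libraries.

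Besides Wnt3a and Wnt9a, every lymph node library lay above all others with a summit in median background at Wnt2, Dkk2, Sfrp2, Sfrp4 and Znrf3, and at each of these but Dkk2 it was 2 times the floor or more in every lymph node library. By the lowest summit Wnt3a and Wnt9a were the only ones of the 49 where this held. That measure was not planned, unlike the median, and both genes were named for raised background beforehand. They are neighbours that share a region, so they are not separate cases. Without the 7 raised 1 Mb bins, Wnt3a and Wnt9a are no longer among the genes tested, and limma called Nkd1 and Lrp6 as before.

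Wnt7b, a ligand of lung and kidney development, had 2, 4.5, 2.5 and 5 regions in the Nfibf/f lines, against 5.5, 5 and 4 in the RPR2 lines. The spread within the Nfibf/f lines was wide and reached the RPR2 values (log2 difference -0.49 ± 0.24, SE, limma adjusted p = 0.267). Wnt11, a ligand linked to cell movement in the embryo, had 4.5, 4.5, 3 and 4.5 regions in the Nfibf/f lines, against 3, 3.5 and 3.5 in the RPR2 lines. Before scaling it overlapped only through 1398P2, the line with the shallow library (log2 difference 0.25 ± 0.12, SE, limma adjusted p = 0.27). After scaling the nearest values, 3.70 in 1398P2 and 3.54 in 1373M1, did not overlap. In the window of the gene plus 50 kb the difference of Wnt11 turned to -0.84 with a limma adjusted p of 0.0222, and without replicate 1 of every line it was 0.00 (limma adjusted p = 0.994), so its direction depended on the setting. Of its listed starts, the upstream one, with a CpG ratio of 1.18, had a peak in 2 of 8 Nfibf/f and 3 of 6 RPR2 libraries, and the downstream one, with a ratio of 0.81, in 6 of 8 and 4 of 6.

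Wnt4 and Wnt7a each held a region open in the RPR2 lines alone. Wnt4, a ligand of kidney and reproductive tract development, had 5, 5, 3.5 and 4 regions in the Nfibf/f lines, against 4.5, 5 and 6 in the RPR2 lines, overlapping (log2 difference -0.22, limma adjusted p = 0.436). Within 50 kb, or without replicate 2 of every line, the difference of Wnt4 was 0.05 and 0.03 (limma adjusted p = 0.911 and 0.931). Past its end, chr4:137301457-137302161 had a peak in 0 of 8 Nfibf/f and 6 of 6 RPR2 libraries. Wnt7a, a ligand of the limb and nervous system, had 2.5, 2, 1.5 and 2 regions in the Nfibf/f lines, against 3, 3 and 4 in the RPR2 lines, without overlap. It was below the mean of 3 regions and not tested. Its region at chr6:91408534-91409152, 2.5 kb inside the gene, had a peak in 0 of 8 Nfibf/f and 6 of 6 RPR2 libraries.

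Of the other ligands, Wnt3 and Wnt9b are neighbours that share 2 regions, and Wnt6 and Wnt10a are neighbours that share 3. Wnt10a had 7, 6, 4 and 5 regions in the Nfibf/f lines, against 5.5, 5 and 6 in the RPR2 lines, overlapping fully. Wnt1, Wnt2, Wnt2b, Wnt5a, Wnt8a, Wnt8b, Wnt10b and Wnt16 had means of 1.43 to 2.79 regions and were not tested. Among these, Wnt2b had 2 regions in every line. Wnt10b had a start peak in 2 of 8 Nfibf/f and 0 of 6 RPR2 libraries. Summed over the 19 ligands, regions numbered 73, 74.5, 51.5 and 79.5 in the Nfibf/f lines, against 80, 76 and 75.5 in the RPR2 lines. Apart from 1398P2 these sums lie close together.

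Among the receptors, Lrp6 (chr6:134446476-134566913) separated the genotypes. It had 11.5, 10.5, 8.5 and 10.5 regions in the Nfibf/f lines, against 5.5, 6 and 6.5 in the RPR2 lines. Every Nfibf/f line lay above every RPR2 line, including 1398P2. The log2 difference was 0.72 ± 0.14 (SE; limma adjusted p = 0.044).

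The regions of Lrp6 seen in the Nfibf/f lines alone were mostly inside the gene body. Those at chr6:134452743-134453257 and chr6:134520876-134521962 had a peak in 8 of 8 Nfibf/f and 0 of 6 RPR2 libraries. Others lay at chr6:134486266-134486722, with a peak in 5 of 8 Nfibf/f and 0 of 6 RPR2 libraries, and at chr6:134542541-134542812 and chr6:134555239-134555778, each in 4 of 8 and 0 of 6. The region over the gene end at chr6:134565880-134567528 was open in all 7 lines. The call of Lrp6 lay near the threshold and was lost without replicate 1 of 1398P2 (adjusted p = 0.195), without replicate 1 of 1399P1, or without replicate 2 of 12N1G, 1373M1, 1399M4 or N2N1G (adjusted p = 0.0524 to 0.0674), and without any line other than 1373M1 (adjusted p = 0.0573 to 0.194), all from limma. It was also lost with no scaling, with the gene body alone, with stricter peaks, with each library's own peaks, with a peak required in both libraries, with the lymph node lines as 1 line and with regions open in no line, and without replicate 1 or 2 of every line (limma adjusted p = 0.054 to 0.214).

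Lrp5, the close relative of Lrp6, had 8.5, 15, 5.5 and 12.5 regions in the Nfibf/f lines, against 11, 12.5 and 11 in the RPR2 lines. The Nfibf/f lines spread on both sides of the RPR2 lines, with 1399M4 highest and 1398P2 lowest (log2 difference -0.24, limma adjusted p = 0.603). With the same number of peaks taken from every library its difference was 0.25 (limma adjusted p = 0.652). A region in the flank of Lrp5, chr19:3692489-3693155, had a peak in 8 of 8 Nfibf/f and 0 of 6 RPR2 libraries. The difference between Lrp5 and Lrp6 in their response was not tested.

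The Frizzled genes are short and held few regions, with means of 0.786 to 2.93, and none was tested. Fzd1, Fzd2 and Fzd8 had a lone region in every line but 1398P2, where 1 of 2 libraries had it. It lay at the start of Fzd1, and at a gene end of Fzd2 and Fzd8, which have no listed start. Fzd10 had its region in 7 of 8 Nfibf/f and 4 of 6 RPR2 libraries, with none in 1373M1. Fzd4, which also serves as the receptor of Norrin in vessels, had 2, 3, 2.5 and 2 regions in the Nfibf/f lines, against 1, 1 and 1 in the RPR2 lines, without overlap. Its start was open in all 7 lines, and the added regions were chr7:89398056-89398578, with a peak in 6 of 8 Nfibf/f and 0 of 6 RPR2 libraries, and chr7:89415752-89416394, in 5 of 8 and 0 of 6. Tested without a filter on low means, Fzd4 differed by 0.93 on the log2 scale (limma adjusted p = 0.0457), and with a mean of at least 1 the adjusted p was 0.0525. Fzd4 was chosen for description after its values were seen. Summed over the 12 receptors, regions numbered 35, 46, 26 and 41 in the Nfibf/f lines, against 33.5, 34 and 31.5 in the RPR2 lines.

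Among the secreted inhibitors, Wif1, which binds WNT ligands directly, had 3.5, 4.5, 4.5 and 3 regions in the Nfibf/f lines, against 2, 2 and 3 in the RPR2 lines. The groups touch at 3, in 1399P1 and 1373M1 (log2 difference 0.63 ± 0.24, SE, limma adjusted p = 0.17). Its start was open in all 7 lines, and a region at chr10:121095934-121096910 had a peak in 8 of 8 Nfibf/f and 2 of 6 RPR2 libraries, and that pair were the libraries of 1373M1.

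Dkk2, a DKK protein that binds LRP5 and LRP6, varied most by line. It had 2.5, 2.5, 1 and 3 regions in the Nfibf/f lines, against 5, 4 and 0 in the RPR2 lines. The RPR2 lines stood on either side of all Nfibf/f lines, since 1373M1 had no peak within the gene or 10 kb of it. Regions at chr3:132086990-132087560 and chr3:132137754-132138400 were open in 12N1G and N2N1G alone, with a peak in 2 and 1 of 8 Nfibf/f libraries. Median background at Dkk2 in the lymph node lines was 1.79 to 6.43 times the floor, against 1.00 to 1.65 times in the 7 other libraries with a summit there, and its part in the counts was not tested. Dkk2 was below the mean of 3 and chosen after its values were seen. Where genes with a mean of at least 1 were tested, its log2 difference was 2.54 in liver metastases, Nfibf/f minus RPR2 (limma adjusted p = 0.0434), and 3.32 in RPR2 lines, lymph node minus liver (limma adjusted p = 0.0145). Both rest on 1373M1, the only RPR2 liver line.

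Sfrp1 and Sfrp2, Frizzled-like decoys, also had their highest values in the lymph node lines. Sfrp1 had 1, 1, 1 and 1.5 regions in the Nfibf/f lines, against 3, 3 and 1 in the RPR2 lines. Sfrp2 had 2.5, 1.5, 1.5 and 1.5 in the Nfibf/f lines, against 3, 2.5 and 1.5 in the RPR2 lines. In both genes the liver line 1373M1 lay within the Nfibf/f values. Median background at Sfrp2 in the lymph node lines was 4.84 to 6.58 times the floor, against 1.47 to 3.1 times in the others with a summit, and its part in the counts was not tested. The start of Sfrp2 had a peak in 2 of 8 Nfibf/f and 5 of 6 RPR2 libraries. Its promoter is shown as a start of middling CpG content whose peaks vary by line, 250 bases before the start on the plus strand of GRCm38.p6, from RefSeq, with CpG in capitals.
Sfrp2, chr3:83766071-83766320: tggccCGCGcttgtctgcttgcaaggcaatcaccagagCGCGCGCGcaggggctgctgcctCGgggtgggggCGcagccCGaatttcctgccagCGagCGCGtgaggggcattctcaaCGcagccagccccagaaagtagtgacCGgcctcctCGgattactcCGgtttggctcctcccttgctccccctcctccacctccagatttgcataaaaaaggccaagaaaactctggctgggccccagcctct

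It holds 16 CpG, a ratio of 0.64. Dkk1, Dkk3 and Sfrp4 had means of 0.643 to 2.57 regions and were not tested, Sfrp5 had a mean of 4.14 and overlapping groups, and Dkk4 had no open region in any line. Summed over the 9 secreted inhibitors, regions numbered 18, 17.5, 13.5 and 19.5 in the Nfibf/f lines, against 21.5, 21 and 14.5 in the RPR2 lines, with the lymph node lines highest and 1373M1 within the Nfibf/f values.

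Across the 36 listed starts of 32 of the genes, starts with a peak in more libraries were richer in CpG, as they were over all promoters. The median CpG ratio was 0.874 for the 12 starts with a peak in all 14 libraries, 0.743 for 18 with a peak in some and 0.318 for 6 with none. Over 21262 promoters of 17491 genes the medians were 0.789, 0.476 and 0.172. The plot of CpG ratio shows Wnt3a, at 0.927 with peaks in 2 libraries, below every start of higher ratio in its number of libraries. TCF/LEF cores (CTTTGAA or CTTTGAT on either strand) occurred in 3 of the 36 (8.33%), beside 6.73% of all promoters, at Wnt5b, Wnt11 and Dkk1. The NFI palindrome (TGGCNNNNNGCCA), bound by the family of NFIB, occurred in 0 of the 36, beside 0.72% of all promoters.

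**Figure D5:**
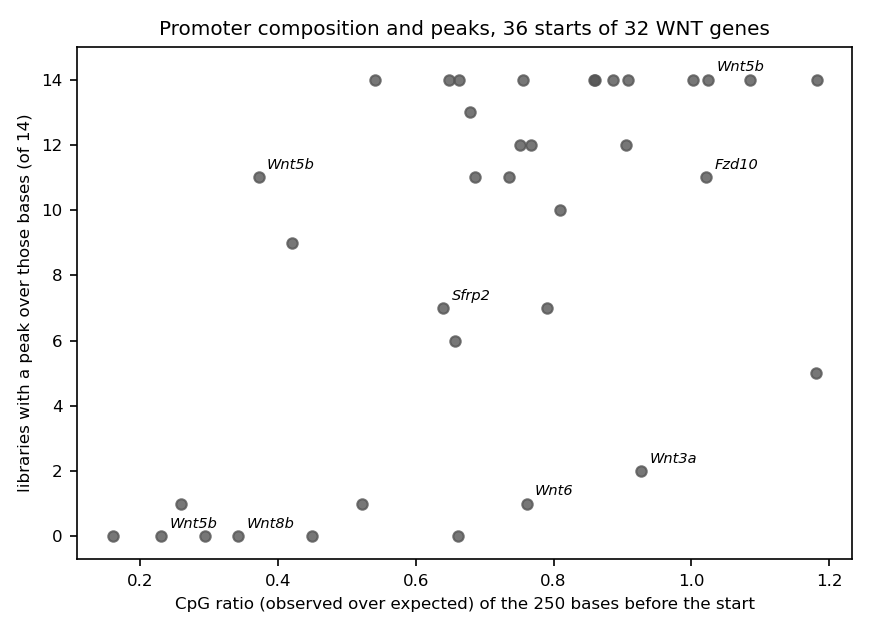
Observed-over-expected CpG ratio of the 250 bases before each of 36 starts of 32 WNT genes (x axis) against the number of libraries with a peak over those bases (y axis, of 14). Starts with a ratio under 0.4 have mostly 0 or 1 library, the Wnt5b start at 0.372 with 11 being the exception, and Wnt3a stands at 0.927 with 2.

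Among the intracellular feedback genes, Nkd1 (chr8:88521342-88594887) stood apart. It had 3.5, 3, 3.5 and 4 regions in the Nfibf/f lines, against 7.5, 7.5 and 6 in the RPR2 lines. The groups were separated by 2 regions, with the lymph node lines highest and the RPR2 liver line between. The log2 difference was -0.91 ± 0.16 (SE; limma adjusted p = 0.0381).

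The region at the upstream end of the gene, chr8:88520924-88522282, was open in all 7 lines, as was chr8:88565960-88566949 inside it. The lone Nkd1 promoter in the RefSeq table lies inside the gene, at chr8:88527383-88527632, and had a peak in 0 of 14 libraries. The RPR2 lines added chr8:88578413-88579207, with a peak in 0 of 8 Nfibf/f and 6 of 6 RPR2 libraries, and chr8:88522356-88522951, just past the upstream end, in 1 of 8 and 6 of 6. Further regions were open in some RPR2 lines only. At chr8:88577651-88578149, 0 of 8 Nfibf/f and 4 of 6 RPR2 libraries had a peak, all of the lymph node lines. At chr8:88542793-88543213 the peaks were in 0 of 8 and 4 of 6, both libraries of 1373M1 and 1 of each lymph node line. The call was lost without replicate 1 of 1398P2 (adjusted p = 0.21) and without line 12N1G, N2N1G, 1398P2, 1399M4 or 1399P1 (adjusted p = 0.065 to 0.143), and with no scaling, the gene body alone, 50 kb windows, each library's own peaks, a peak required in both libraries, the lymph node lines as 1 line or no replicate 1 (adjusted p = 0.0509 to 0.22), all from limma. With the same number of peaks taken from every library it was -0.18 (limma adjusted p = 0.536).

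Nkd2, the relative of Nkd1, had 2, 4.5, 3 and 6 regions in the Nfibf/f lines, against 4, 4.5 and 4.5 in the RPR2 lines, which overlap. Axin1, the scaffold of the destruction complex, had 4 regions in 6 of 7 lines and 3 in 1373M1, with a peak at a gene end in 0 of 8 Nfibf/f and 1 of 6 RPR2 libraries. Axin2, its inducible counterpart and a widely used readout of canonical signaling, had 2, 3, 1.5 and 2.5 regions in the Nfibf/f lines, against 3, 3 and 1.5 in the RPR2 lines, with its start open in all lines. Neither Axin gene separated the genotypes.

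Among the genes of the R-spondin axis, Znrf3, a ligase that removes Frizzled, carried the most open regions of all 49. It had 11, 14, 9 and 14 regions in the Nfibf/f lines, against 12.5, 13.5 and 14 in the RPR2 lines, which overlap (log2 difference -0.17, limma adjusted p = 0.51). Its sister ligase Rnf43 had 4.5, 5.5, 5 and 7 regions in the Nfibf/f lines, against 3.5, 4 and 5 in the RPR2 lines. Here 1373M1 reached into the Nfibf/f range (log2 difference 0.36 ± 0.17, SE, limma adjusted p = 0.249).

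Lgr6, an R-spondin receptor, had 13, 6.5, 6 and 9 regions in the Nfibf/f lines, against 9.5, 7.5 and 11.5 in the RPR2 lines, with no separation (log2 difference -0.18, limma adjusted p = 0.741). A region inside it, chr1:135032696-135033092, had a peak in 0 of 8 Nfibf/f and 6 of 6 RPR2 libraries. Lgr5, an R-spondin receptor known as a stem cell marker of the gut, had 4.5, 4, 1 and 3 regions in the Nfibf/f lines, against 6, 4.5 and 4 in the RPR2 lines. The value of 1398P2 was lowest and the groups overlap at 4 to 4.5 (log2 difference -0.69 ± 0.33, SE, limma adjusted p = 0.252). Lgr4, the more broadly expressed receptor, had 7, 6.5, 8 and 10 regions in the Nfibf/f lines, against 5.5, 6 and 10 in the RPR2 lines, where 1373M1 matched the highest Nfibf/f line. Summed over the 5 genes, regions numbered 40, 36.5, 29 and 43 in the Nfibf/f lines, against 37, 35.5 and 44.5 in the RPR2 lines.

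In all, 3 of the 297 regions were open in every Nfibf/f line and closed in every RPR2 line, beside 0.691% of regions near all genes, and 5 of 297 were open in every RPR2 line and closed in every Nfibf/f line, beside 1.12%. The Nfibf/f regions lay at Lrp5 and Lrp6, both co-receptors. The RPR2 regions lay at Wnt4, Wnt5b, Wnt7a, Nkd1 and Lgr6. The shares among the 297 regions were 1.01% and 1.68%, and whether they differ from those of all genes was not tested.

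Between liver metastases of the genotypes, limma called 0 of the 22 genes at an adjusted p of 0.05, beside 1.13% of all genes, and 3 (13.6%) had an unadjusted p under 0.05, beside 13.2% of all genes. In that contrast 1373M1 is the only RPR2 line and is assumed to vary like the other groups. The log2 difference, Nfibf/f minus RPR2, was -0.85 ± 0.22 for Nkd1 (SE; limma adjusted p = 0.156), 0.65 ± 0.23 for Lrp6 (0.266) and -0.60 ± 0.22 for Lgr4 (0.304). The sizes for Nkd1 and Lrp6 were close to those over all tissues, with which the contrast shares its lines.

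Between liver metastases and lung tumors of Nfibf/f mice, limma called 0 of the 22, beside 0.0991% of all genes, and 2 (9.09%) had an unadjusted p under 0.05, beside 6.42% of all genes. Lgr5 had 4.5 and 4 regions in the liver lines, against 1 and 3 in the lung lines, that is 0.98 ± 0.29 on the log2 scale (SE; limma adjusted p = 0.624). Lgr4 had 7 and 6.5 regions in the liver lines, against 8 and 10 in the lung lines (-0.49 ± 0.18, limma adjusted p = 0.735). The liver lines had more regions at Lgr5 and fewer at Lgr4, genes picked for the smallest p of this contrast. The lowest Lgr5 value was that of 1398P2, with its shallow library. Wnt10a had 7 and 6 regions in the liver lines, against 4 and 5 in the lung lines (0.39 ± 0.18, limma adjusted p = 0.781).

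Between lymph node and liver metastases of RPR2 mice, limma called 0 of the 22, beside 1.83% of all genes, and 2 (9.09%) had an unadjusted p under 0.05, beside 12.8% of all genes. Lgr4 had 5.5 and 6 regions in the lymph node lines, against 10 in the liver line (log2 difference -0.76 ± 0.22, SE, limma adjusted p = 0.188). Wnt3a had 5.5 and 6 regions in the lymph node lines, against 4 in the liver line (0.46 ± 0.20, limma adjusted p = 0.387), beside the raised background given above. Rnf43 had 3.5 and 4 against 5 (-0.39 ± 0.21, limma adjusted p = 0.528). Lgr4 and Rnf43 thus had fewer regions and Wnt3a more in the lymph node lines than in the lone liver line, and none passed. These genes were picked for the smallest p of this contrast.

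Regions open in the lymph node lines alone numbered 14 at these genes, 4.71% of the 297, beside 4.4% of regions near all genes. Those open in the RPR2 liver line alone numbered 13 (4.38%, beside 5.07%). The Nfibf/f liver lines alone opened 3 (1.01%, beside 0.763%) and the Nfibf/f lung lines alone opened 1 (0.337%, beside 0.595%).

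Of 59 further pathway genes, 36 were tested between genotypes, and limma called 1 higher in Nfibf/f lines and 0 lower, beside 1.42% of all genes tested. An unadjusted p under 0.05 was reached by 8 of the 36 (22.2%), beside 21.8% of all genes. Their median log2 difference was -0.14, and 9 were positive. The called gene was Gsk3b, the kinase that marks beta-catenin for degradation. It had 8, 9.5, 5 and 8 regions in the Nfibf/f lines, against 2.5, 3 and 4.5 in the RPR2 lines. The groups did not overlap, though 1398P2 came within 1 region of 1373M1 (log2 difference 1.08 ± 0.20, SE, limma adjusted p = 0.0433). Its adjusted p was 0.0522 to 0.191 without replicate 2 of 12N1G or 1373M1, without replicate 1 of 1398P2, or without any line other than 1373M1, and 0.0517 to 0.214 under the other settings that ended the call, with no scaling among them.

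Next by p were Tcf7l1 and Tle2, which repress WNT targets in the absence of beta-catenin. Tcf7l1 had 18, 14, 11.5 and 17 regions in the Nfibf/f lines, against 22, 22.5 and 23 in the RPR2 lines (log2 difference -0.58, limma adjusted p = 0.0644). Tle2 had 5, 5, 5 and 6.5 in the Nfibf/f lines, against 8.5, 8.5 and 8 in the RPR2 lines (-0.60, limma adjusted p = 0.0644). In both genes every Nfibf/f line lay below every RPR2 line, yet neither passed.

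The ROR receptors act in the branch without beta-catenin, and neither passed between genotypes. Ror1, chosen after its values were seen, had 8.5, 2.5, 3.5 and 11 regions in the Nfibf/f lines, against 17, 16.5 and 13 in the RPR2 lines (log2 difference -1.43 ± 0.39, SE, limma adjusted p = 0.0942). Ror2 had 6.5, 9, 6 and 9 in the Nfibf/f lines, against 5, 6 and 2 in the RPR2 lines (log2 difference 0.84 ± 0.29, SE, limma adjusted p = 0.149). These values touch at 6, and after scaling the nearest were 6.42 in 1398M1 and 6.03 in N2N1G. Ror2 was called between liver metastases, Nfibf/f minus RPR2, by 1.65 ± 0.25 on the log2 scale (SE; limma adjusted p = 0.0215), with 1373M1 alone as the RPR2 side. That call was lost without replicate 1 of 1398M1 (limma adjusted p = 0.0544) or of 1398P2 (limma adjusted p = 0.34), and with no scaling (limma adjusted p = 0.282).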

How the data were processed

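ATAC-seq peak lists of 14 libraries, 2 from each of 7 lines, were used. Per the submitters' processing notes, the tools were cutadapt 2.10, Bowtie2, Picard, SAMtools and MACS2 on GRCm38 (mm10); the settings they ran with are not stated there. Per peak, the authors deposited a fold enrichment (a ratio over local background), a −log10 p, a −log10 q and an integer score; the lowest −log10 q is 1.3. Read counts were not used here, so differences are in the number of regions with a peak.

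Peaks of all libraries were merged (1 bp overlap), and regions open in at least 1 line were counted per gene and library within the gene body plus 10 kb, averaged per line and scaled by the line's total over genes. limma 3.58.1 (R 4.3.3) was run on log2(value + 0.5) for genes averaging 3 or more regions, and p-values were adjusted by Benjamini-Hochberg (threshold 0.05); tissue contrasts came from 1 fit of 4 groups. Pileup and local background were solved from fold enrichment and −log10 p under a Poisson model (pileups within 0.02 of whole numbers for 100% of 1192565 summits). Raised bins are 1 Mb stretches with at least 5 summits whose lowest background is 2 times the floor or more, in both libraries of a line. Promoters are RefSeq entries of GRCm38.p6, which list a start for 32 of the 49 genes. Python 3.11.15, NumPy 2.4.6, pandas 2.3.3, SciPy 1.17.1 and Matplotlib 3.10.9 were used, and the code was tested on simulated data.

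Genes given in full were those called, the 8 with the smallest p between genotypes, the 3 with the smallest p in each tissue contrast, the 4 with the most regions, Wnt3a and Wnt9a, and those with a genotype-specific region; of further pathway genes, those called and the 3 with the smallest p. The members, lists and rules were chosen with earlier results of these data known. Alternatives covered scaling, filters, pseudocount, window, peak threshold, merging, and leaving out libraries and lines.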

Additional observations from a re-analysis of the deposited data

Results flagged for a closer look

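Dixon's test at 95% marked 11 of 54 sets of values at the listed genes as holding a value far from the rest, where chance marks about 1 in 20. In 7 of them the low value was that of 1398P2, whose replicate 2 has the fewest peaks, and the part of that library was not tested. It had 3.5 regions at Wnt3, 2.5 at Wnt10b and 3.0 at Wnt11, and 0.5 at each of Fzd1, Fzd2, Fzd8 and Fzd10, below the other 3 Nfibf/f lines at each gene.

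Among the Nfibf/f lines a high value stood apart at Dkk1 in 1399M4 with 1.0 region, at Sfrp1 in 1399P1 with 1.5 and at Sfrp2 in 1398M1 with 2.5. The numbers of regions move in steps of 0.5, so a lone step is enough to stand apart where the other lines share a value. The median background at Wnt3a was 1.27 times the floor in replicate 2 of 1399M4, below the other 3 libraries of the Nfibf/f liver lines.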

How the results depend on the processing

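Genes called between genotypes numbered 100, and 269 with a mean of at least 1 region, 444 with no filter, 24 with no scaling, 55 with equal numbers of peaks, 342 with the replicate block, 2 in the gene body alone, 359 within 50 kb, 65 with each library's own peaks, 1 with a peak needed in both libraries and 2 with the lymph node lines as 1. In liver metastases, 80 became 0 with no scaling, 7 with equal peaks and 121 with the block. In Nfibf/f tissues, 7 became 4 with a mean of at least 1, 1 with no scaling, 0 with equal peaks, 0 without raised bins and 4 with all regions. In RPR2 tissues, 129 became 222 with a mean of at least 1, 0 with no scaling and 12 with equal peaks. Of the 49 genes, 2 were called between genotypes, 0 with no scaling, gene bodies alone, own peaks, both libraries or lymph node lines as 1, and 1 with equal peaks, all regions or stricter peaks. Between tissues 0 were called, and 1 (Dkk2) with a mean of at least 1.

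Genotype-specific regions were 3 in Nfibf/f, 1 with equal peaks and 9 with 1 library enough, and 5 in RPR2, 11 with 1 library enough. The background ratio, lowest lymph node over highest other library, was 3.28 at Wnt3a and 1.48 at Wnt9a by the median and 2.35 and 3.28 by the lowest summit. The difference of Wnt11 turned sign within 50 kb (-0.84) and without replicate 1 (-0.004), and kept it without replicate 2 (0.375). Those of Lrp5 (0.25) and Wnt5b (0.204) turned with equal peaks. That of Wnt4 turned within 50 kb (0.049) and without replicate 2 (0.028), and kept its sign without replicate 1 (-0.504). The causes were not tested.

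Leaving out a library, a line or a replicate number gave 1 to 415 genes called between genotypes, 6 to 125 in liver, 0 to 12 in Nfibf/f tissues, 15 to 176 in RPR2 tissues, 0 to 2 of the 49 between genotypes and 0 to 0 between tissues, with 3 to 4 and 5 to 6 specific regions in Nfibf/f and RPR2. Over the genes named, 827 settings kept side and direction, 56 lost a call, 6 gained 1 and 6 turned sign. Most of the 827 are of genes not called, for which staying uncalled counts as kept. Between genotypes the call was lost in 14 of 38 settings for Nkd1, 21 of 38 for Lrp6 and 18 of 37 for Gsk3b. For Ror2 between liver metastases it was lost in 3 of 20. The replicate block fitted single libraries, with the line as the block and the replicate number as a covariate. Its correlation within lines was 0.488 in the genotype fit and 0.407 in the tissue fit. Libraries with the same number did not deviate together (r -0.095 to 0.113), so the covariate has no basis in the design. With the block, Nkd1 (limma adjusted p = 0.0103) and Lrp6 (0.0201) were called, as were Tle2 (0.0153), Tcf7l1 (0.00945) and Ror1 (0.0411). Tle2 (0.0392) and Tcf7l1 (0.0494) also passed without replicate 2 of 1398P2. Replicate 2 of 1398P2 has the fewest peaks, and its part in the low counts of that line was not tested. Contrasts with RPR2 rest on 3 lines or fewer of that genotype.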
